A study of Mus musculus with 4 samples.

Results

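The genes examined were those of 6 lysosomal cathepsins (Ctsa, Ctsb, Ctsd, Ctsl, Ctss and Ctsz), the asparaginyl endopeptidase legumain (Lgmn) and the lysosomal membrane proteins Lamp1 and Lamp2. They were chosen by symbol, and all 9 were found among the 32285 features of the spatial count tables. The tables held counts of unique molecular identifiers (UMIs, each standing for 1 captured RNA molecule) for sections of tibial muscle, taken from C57BL/6 mice of the genotype Nse-Bmp4 aged 6 to 8 weeks. In these mice the promoter of neuron specific enolase (Nse) drives a Bmp4 transgene, so every section, the uninjured one included, carried it, and bone forms in muscle after injury. The 4 groups were uninjured muscle (day 0) and muscle taken 1, 3 and 7 days after cardiotoxin injury, with 1 section each, and per the labels 3 muscles were mixed for a group. There was no replicate section, so no difference between days has a replicate check and no p-value is given.

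Lysosomes are acid compartments in which cells break down proteins, lipids and sugars taken up from outside or delivered by autophagy. Cathepsins are their proteases, made as inactive precursors and activated by the acid pH, and LAMP proteins form the sugar-coated lining of the lysosomal membrane. In injured muscle, macrophages engulf dead myofibres and are rich in these enzymes, while every other cell type also has lysosomes. Many lysosomal genes carry an E-box in their promoter that is bound by the transcription factor TFEB and its relatives.

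Promoter windows from 250 bases before to 50 bases after a gene start (RefSeq, GRCm38.p6) matched 8 of the 9 genes, all but Ctsb, in 10 windows, since Ctsa and Lgmn had more than 1 start. The E-box core CACGTG, which reads the same on both strands, lay in 5 of these 10 windows, 1 each of Ctsa, Ctsd, Ctsl, Lgmn and Lamp1, against 7.15% of all 32851 windows. With its flank on 1 side (TCACGTG, either strand) it lay in 4 windows (3.77% of all windows), and with both flanks (TCACGTGA) in those of Ctsa and Ctsd (0.974%). Among 93 windows of the other lysosomal genes described below, the shares were 21.5% for the core, 20.4% with 1 flank and 11.8% with both. The 3 letter strings are nested and overlap. No CACGTG was found in the windows of Ctss, Ctsz and Lamp2. The Ctss window held GAAANNGAAA, the core of the element bound by interferon regulatory factors, which lay in 3.44% of all windows (either strand) and also in the Lamp1 window. This string was searched for after the sequence had been seen. The stretches below, each upstream of its gene start, are shown because Ctss and Lamp1 had the largest and the smallest ratio of day 3 to day 0, and because Ctsa and Ctsd hold the full E-box. Capitals mark CACGTG, and in Ctss GAAANNGAAA. A match is a string of letters and not a measured binding site.
Lamp1, chr8:13159090-13159159, plus strand: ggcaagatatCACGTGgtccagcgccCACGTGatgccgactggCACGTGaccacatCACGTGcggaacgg
Ctsd, chr7:142387908-142387937, minus strand: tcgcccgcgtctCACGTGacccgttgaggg
Ctsa, second start, chr2:164833749-164833771, plus strand: tgagcaaactgtCACGTGatgca
Ctss, chr3:95526753-95526782, plus strand: aagtctttaaatGAAACCGAAAtgaaagtt

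The Lamp1 stretch of 70 bases held 4 copies of the E-box core, more than any other window of these genes. In the same annotation Ctsa spans chr2:164832872-164841032, Ctsz chr2:174427494-174439039 and Ctss chr3:95526786-95556405. Ctsd lies at chr7:142375910-142387827, Lamp1 at chr8:13159161-13175338 and Lgmn at chr12:102394082-102439728. Ctsl was annotated at chr13:64361890-64370772, Ctsb at chr14:63122462-63145923 and Lamp2 at chrX:38399647-38456460.

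Sections had between 2107 and 3032 spots and between 16777832 (day 1) and 56113066 (day 3) UMIs, with medians of 6322 to 21029 UMIs per spot. Adult myofibre genes, the defining markers of the labelled tissue, had 243051, 132194, 80403 and 142497 CPM (UMIs per 1000000 UMIs of the section) at days 0, 1, 3 and 7, and none of the 11 was at 0 in any section. A list of 12 macrophage genes, which holds none of the genes examined, had 342, 876, 3886 and 1248 CPM, with none of the 12 at 0 in any section. A spot covers several cells, so in a section fewer cells of a type and less RNA per cell cannot be told apart. Pairs of sections shared 1539 to 2311 spot barcodes, and 1341 were in all 4. Barcodes mark positions on the array, so sharing says nothing of shared tissue.

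The 4 cysteine cathepsins were highest at day 3. Ctsb, an abundant endo- and carboxypeptidase, had 459, 1189, 3437 and 1226 CPM at days 0, 1, 3 and 7. Its day 3 level was 7.48-fold that of day 0 (95% interval 7.37 to 7.59, counting error only, as for all intervals here). Ctsl, which also acts in autophagy and in processing of other proteases, had 152, 304, 749 and 275 CPM, and was 4.93-fold higher at day 3 than at day 0 (4.801 to 5.057). On this scale neither gene was back at its day 0 level at day 7 (Ctsb 2.67-fold, Ctsl 1.81-fold). With edgeR's TMM factors, another scaling that is taken up below, these ratios were 1.75 and 1.19.

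Ctss, the cathepsin that trims the invariant chain of MHC class II in antigen-presenting cells, changed most of the 9 genes. On days 0, 1, 3 and 7 it had 432, 2421, 59504 and 4630 UMIs, or 9.85, 144, 1060.4 and 111 CPM. The ratios to day 0 were 14.7 (13.2 to 16.3), 107.7 (98.0 to 118.7) and 11.2 (10.2 to 12.4), and the day 3 ratio was at the 99.7 percentile of the 8097 genes with a mean of at least 10 CPM. The day 7 level of Ctss was 0.104 of that of day 3 (0.101 to 0.108). Ctsz, a carboxypeptidase, had 56.7, 192, 399 and 209 CPM, which is 3.38-fold, 7.04-fold and 3.68-fold the day 0 level.

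Ctsd, the main aspartic protease of the lysosome, had 476, 1150.1, 2366 and 897 CPM, with ratios to day 0 of 2.42 (2.37 to 2.47), 4.98 (4.90 to 5.05) and 1.89 (1.86 to 1.92). Ctsa is a serine carboxypeptidase that also protects the sialidase NEU1 and β-galactosidase. It had 80.2, 149, 320 and 187 CPM, and was 1.86-fold, 3.99-fold and 2.34-fold its day 0 level. Lgmn, which cleaves after asparagine and processes several cathepsins, had 58.3, 500.3, 997 and 230 CPM. It was 8.58-fold higher at day 1 (8.21 to 8.97), 17.1-fold at day 3 (16.4 to 17.8) and 3.94-fold at day 7 (3.77 to 4.12). Of the 9 genes, Lgmn and Ctss were the ones more than 4-fold above day 0 as early as day 1, and between days 1 and 3 Lgmn differed by 1.99-fold, against 7.35-fold for Ctss.

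The membrane proteins had the smallest ratios to day 0 at days 1 and 3. Lamp1 had 315, 394, 630 and 577 CPM, and Lamp2, which also takes part in chaperone-mediated autophagy, had 81.6, 83.3, 184.5 and 184.3 CPM. Lamp1 was 1.25-fold higher than day 0 at day 1 (1.22 to 1.29), 2.003-fold at day 3 (1.96 to 2.04) and 1.84-fold at day 7 (1.80 to 1.87). For Lamp2 the ratio at day 1 was 1.02, with an interval that includes 1 (0.959 to 1.09), and at days 3 and 7 it was 2.26. Set against day 3, the day 7 level of Lamp2 did not differ beyond counting error (0.999, 0.970 to 1.03) and that of Lamp1 was 0.917. For the 7 proteases this ratio lay between 0.104 (Ctss) and 0.586 (Ctsa). The tables count all Lamp2 transcripts together, so its isoforms were not separated.

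**Figure D1:**
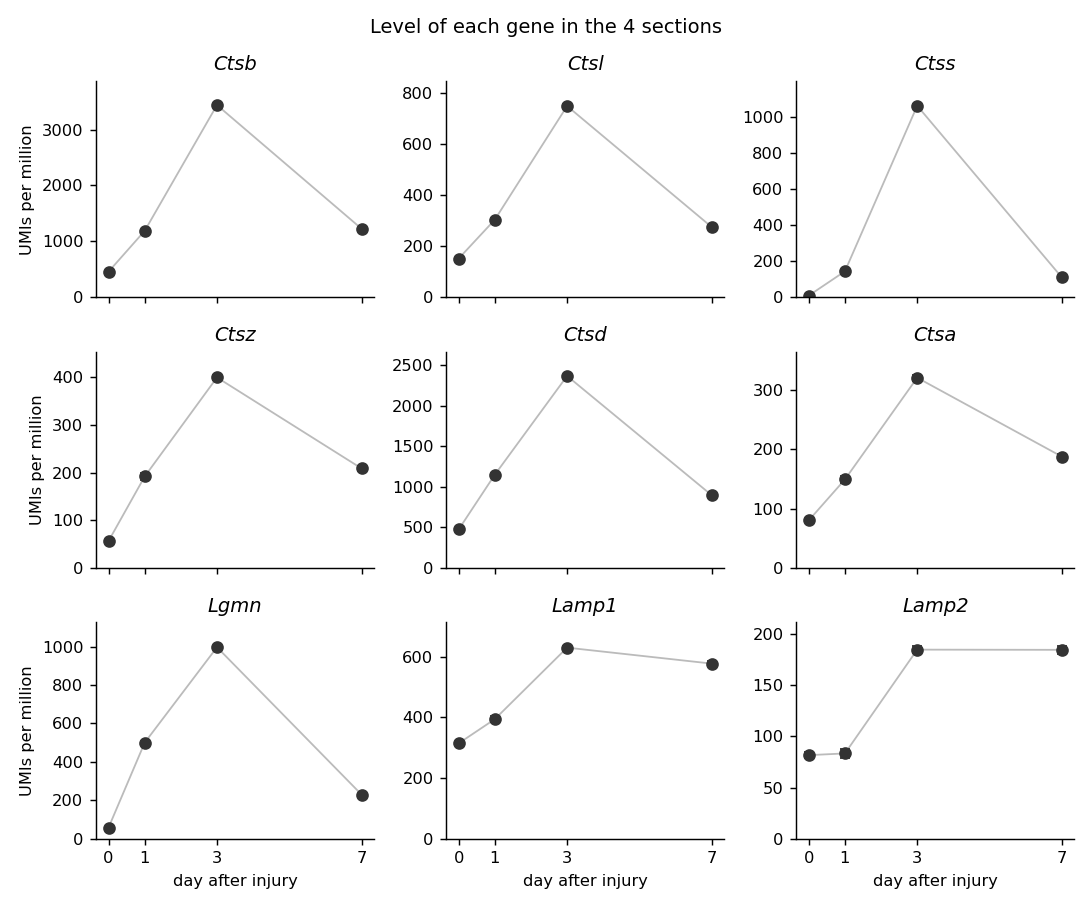
Level in CPM (linear axes from 0) of each gene against the day after injury, with 1 section per day and bars for the exact Poisson 95% interval, mostly smaller than the points. The 7 proteases peak at day 3 and drop by day 7, while Lamp1 (630 and 577) and Lamp2 (184.5 and 184.3) stay near their day 3 level.

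At day 1, 6 of the 9 genes were at least 2-fold above day 0, against 15.3% of the 8097 genes, and Ctsl was at the threshold itself. All 9 were on day 3 (background 28.4%), and 6 on day 7 (21.3%). None was 2-fold lower than day 0, against 7.95%, 5.31% and 0.951% of all genes on days 1, 3 and 7. From day 1 to day 3, 7 of 9 were at least 2-fold higher (11.9%), and from day 3 to day 7, 5 of 9 were at least 2-fold lower (8.26%). All 9 genes passed the filter on low values. The median log2 ratio of the 9 was 1.27, 2.31 and 1.22 at days 1, 3 and 7, beside 0.21, 0.54 and 0.52 over all genes tested. These 3 comparisons share the day 0 section, so their errors are not independent.

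Scaling by edgeR's TMM factors in place of the total shifted every log2 ratio to day 0 by -0.19, -0.55 and -0.61 at days 1, 3 and 7. On that scale 5, 7 and 3 of the 9 genes were at least 2-fold above day 0, against 11.4%, 14.5% and 8.09% of all genes. Between days 1 and 3 the count was 2 of 9 on that scale (6.27% of all genes), namely Ctss and Ctsb. Those at day 7 were Ctss (7.38-fold), Lgmn (2.58-fold) and Ctsz (2.42-fold). Lamp1 was 1.37-fold and Lamp2 1.54-fold higher than day 0 at day 3 on that scale, and Lamp2 turned to 0.895 at day 1.

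**Figure D2:**
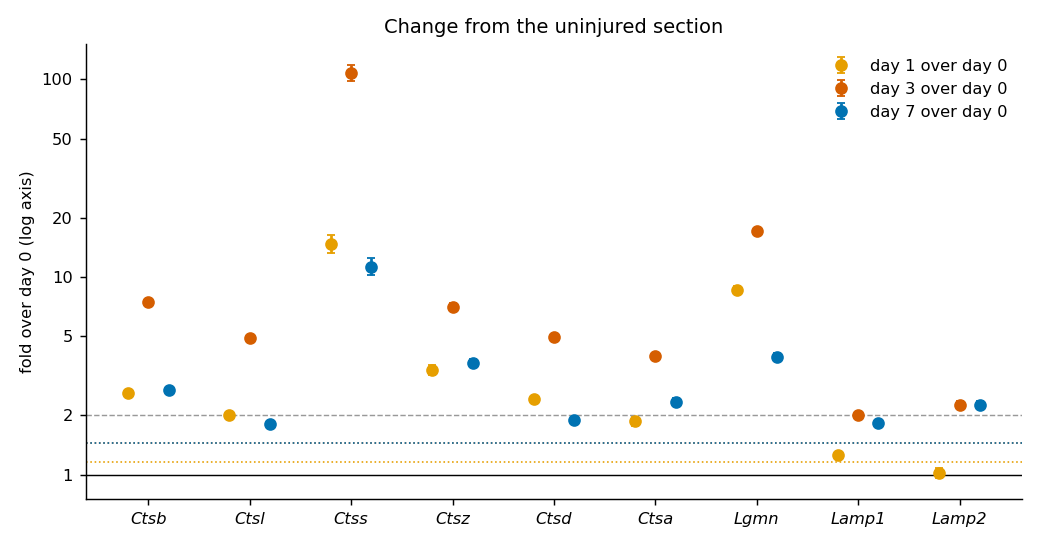
Ratio of CPM at days 1, 3 and 7 to day 0 (log axis) for each gene, with exact 95% intervals for counting error. Coloured dotted lines give the median of all 8097 genes for that day, and the dashed line marks 2-fold. Ctss reaches 107.7 at day 3, while the day 1 points of Lamp1 (1.25) and Lamp2 (1.02) lie near 1.

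RNA of the macrophage list was higher on the same days, and its part in the changes of the 9 genes was not tested. Counts were therefore also set against the macrophage list. Per UMI of that list, Ctss had 0.0288, 0.165, 0.273 and 0.0887 UMIs over the 4 sections in order of time, so it was above day 0 on each injured day. Lgmn had 0.171, 0.571, 0.256 and 0.184 and was highest at day 1. Ctsb had 1.34, 1.36, 0.884 and 0.982. Lamp1 had 0.920 at day 0 and 0.162 at day 3, and Lamp2 had 0.239 and 0.0475 (0.0465 to 0.0484). Fewer UMIs per macrophage UMI than in the uninjured section were found for 5 of the 9 genes on day 1 (91.5% of all genes), 7 on day 3 (97.6%) and 6 on day 7 (94.1%). Without the C1q genes, which carry most of the list's UMIs at days 0, 3 and 7, Ctss still had 4.26, 10.8 and 3.81 times its day 0 value, and Lgmn 2.49, 1.72 and 1.34 times. Ctsb was then at 0.752, 0.752 and 0.904 of day 0, against 1.01, 0.658 and 0.731 with the whole list.

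Within each section, spots of at least 2000 UMIs were ranked by their share of macrophage UMIs, and the richest 25% (the rich spots) were compared with the poorest 25% (the poor spots). These are ranges of a score and not cell types, and 129 to 260 spots per section lay within 10% of the cut. Ctss was higher in the rich spots at every day, with 23.9 against 3.17 CPM at day 0 and 2253 against 170 CPM at day 3. The folds were 7.55 (5.23 to 11.2), 10.2 (8.59 to 12.1), 13.2 (12.6 to 13.9) and 9.55 (8.38 to 10.9) at days 0, 1, 3 and 7. Ctsb was 1.71-fold higher in the rich spots at day 0 and 4.95-fold, 6.47-fold and 3.14-fold higher on the injured days. Lgmn was 2.48-fold, 6.07-fold, 5.84-fold and 3.93-fold higher. Ctsd differed least of the proteases, at 1.15-fold, 2.16-fold, 3.47-fold and 1.86-fold, and Lamp1 reached 2.41-fold at day 3. The number at least 2-fold higher in the rich spots was 2 of 9 on day 0 (background 6.31%), 8 on day 1 (19.5%), all 9 on day 3 (40.2%) and 7 on day 7 (22.4%). The rich spots held 70.3% of all Ctss UMIs at day 3, with 33.1% of all UMIs. Other cell types moved with this split, since at day 3 the myofibre list had 20235 CPM in the rich and 158030 CPM in the poor spots, and the fibroblast list had 7867 and 2257 CPM. Their part in these folds was not tested.

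**Figure D3:**
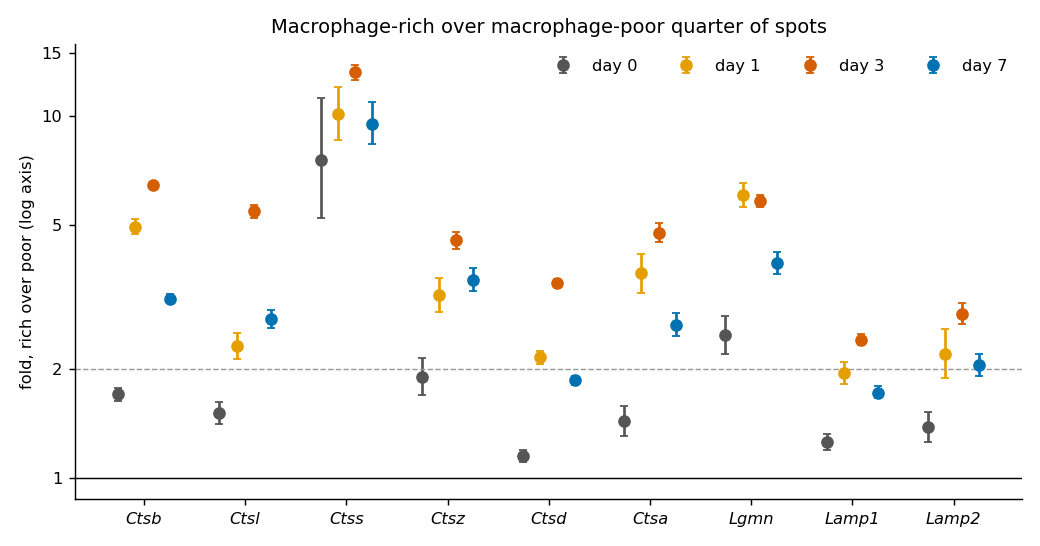
Ratio of CPM in the macrophage-rich to the macrophage-poor 25% of spots (log axis) for each gene and day, with exact 95% intervals for counting error, and a dashed line at 2-fold. Ctss lies highest at every day (7.55 to 13.2), and day 3 is the highest point for each gene except Lgmn, where day 1 is at 6.07 and day 3 at 5.84.

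Spots were then grouped by fixed ranges of the macrophage list, so that days could be set side by side at like macrophage levels. In spots of 1000 to 3000 macrophage CPM (106, 480, 1271 and 1138 spots on days 0, 1, 3 and 7) the list itself averaged 1461, 1584, 1901 and 1628 CPM. The myofibre list was not matched, with 217158 CPM there at day 0 and 113887, 122774 and 126593 CPM on the injured days, and its part in the folds was not tested. In them Ctss had 44.6, 258, 327 and 122 CPM, which is 5.80-fold (4.66 to 7.28), 7.33-fold (5.96 to 9.12) and 2.75-fold (2.23 to 3.42) its day 0 level. Lgmn had 127, 755, 487 and 290 CPM there and was highest at day 1, at 5.92-fold (5.21 to 6.76). Ctsd was 2.72-fold, 2.69-fold and 1.80-fold higher than day 0, and Ctsz 2.68-fold, 2.26-fold and 2.52-fold. For Ctsb the folds were 1.98, 1.76 and 1.61.

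Lamp2 took another course in the same spots. It had 131, 98.1, 115 and 217 CPM, so it was lower than day 0 at day 1 (0.750, 0.636 to 0.885), not distinguishable at day 3 (0.882, 0.777 to 1.005) and higher at day 7 (1.66, 1.46 to 1.88). Lamp1 was 1.201-fold, 1.15-fold and 1.59-fold its day 0 level, so it too was highest at day 7. Ratios over all genes were not computed for these ranges. Over whole sections the median log2 ratio of all 8097 genes to day 0 was 0.21, 0.54 and 0.52 at days 1, 3 and 7. In spots under 1000 macrophage CPM, Ctss was 8.29-fold, 18.8-fold and 5.19-fold higher than day 0, Lgmn 5.05-fold, 5.16-fold and 2.48-fold, and Lamp2 was at 0.831, 1.21 and 1.80. The ranges are broad, and in the lower one the list averaged 281, 441, 725 and 551 CPM, so the match there is loose. The myofibre list had 244448, 143200, 162844 and 163694 CPM in the lower range. Day 0 had 4 spots of 3000 to 10000 macrophage CPM, too few for a value. Between the injured sections in that range, Ctss had 813, 1672 and 544 CPM, Lgmn 2775, 1448 and 552 CPM, and Lamp2 263, 244 and 297 CPM at days 1, 3 and 7. The match was loose there too, since the macrophage list averaged 4588, 5684 and 4035 CPM on these days. The myofibre list had 52475, 35897 and 82726 CPM, and the part of both lists in these values was not tested.

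**Figure D4:**
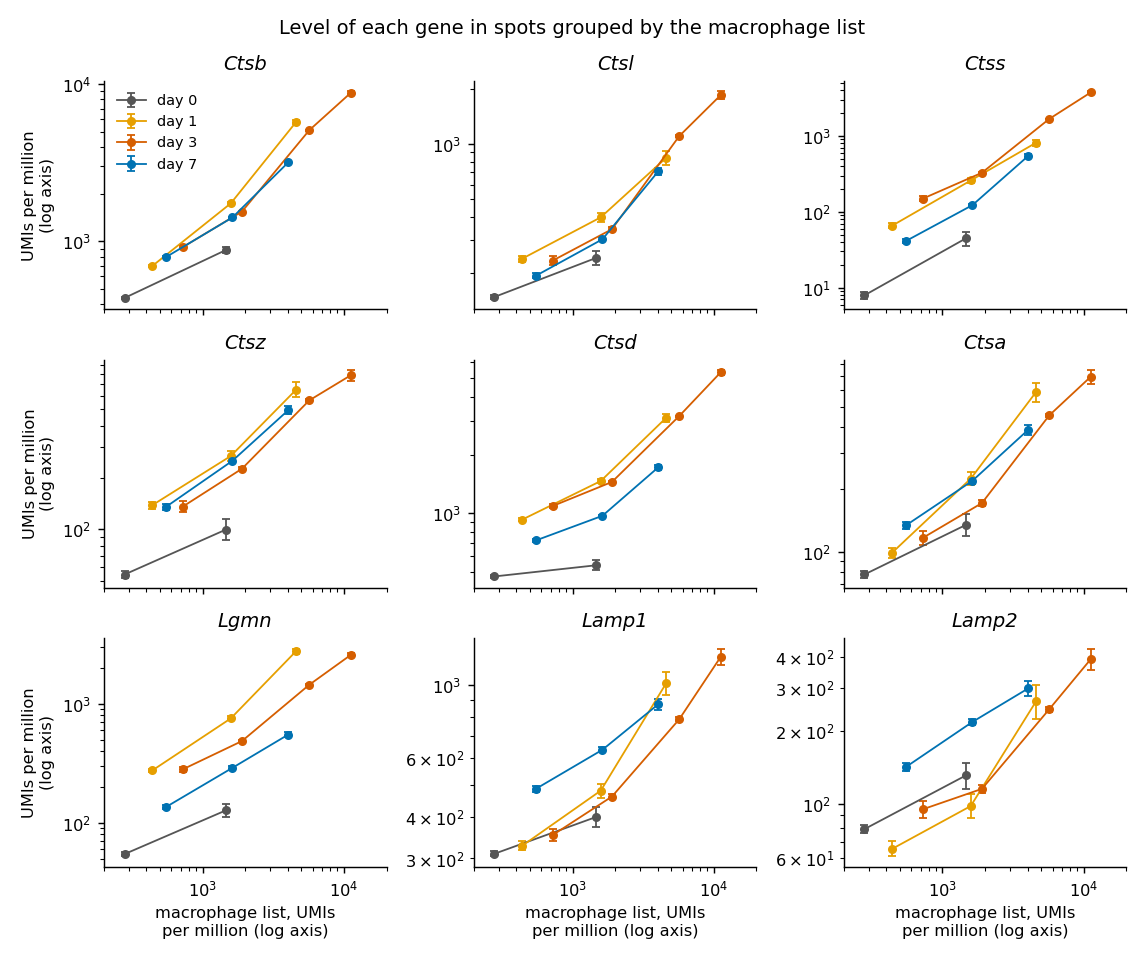
CPM of each gene against CPM of the macrophage list (both log axes) in spots grouped by the list, with 1 line per section, 1 point per range of at least 20 spots, and exact Poisson 95% intervals. Levels rise with the list at every day; for Lgmn the day 1 line is the highest from 1000 CPM on, and for Lamp1 and Lamp2 the day 7 line lies above that of day 3 up to 10000 CPM.

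In the 25% of spots richest in myofibre RNA, the proteases were above the same class of day 0. Ctss had 5.30 CPM there at day 0 and 45.0, 174 and 36.8 CPM at days 1, 3 and 7. Lgmn had 48.1, 203, 299 and 119 CPM, which is 4.22-fold, 6.22-fold and 2.47-fold the day 0 level, and Ctsz was 2.58-fold, 3.92-fold and 2.36-fold higher. Ctsd was 1.82-fold, 2.73-fold and 1.60-fold higher. Lamp2 was lower at day 1, with 44.1 against 61.9 CPM (0.713, 0.604 to 0.838), and higher at day 7 (1.84, 1.66 to 2.03). The number of the 9 genes at least 2-fold higher was 3 on day 1 (background 10.2%), 5 on day 3 (12.9%) and 3 on day 7 (10.9%). The macrophage list had 239, 492, 1296 and 694 CPM in these spots at days 0, 1, 3 and 7, and its part in these values was not tested.

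Neutrophil genes were near 0 at day 0 (1.55 CPM) and highest at day 1 (161 CPM). In the 215 spots forming the 10% richest in neutrophil RNA at day 1, 6 of the 9 genes were at least 2-fold higher than in the other spots (background 11.8%), led by Ctss (354 against 114 CPM, 3.11-fold, 2.80 to 3.46), Lgmn (2.93-fold) and Ctsb (2.61-fold). Of those 215 spots, 130 were also among the macrophage-rich spots, and the macrophage list had 1834 against 742 CPM, so the contribution of the 2 lists cannot be told apart here.

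Cartilage genes appeared at day 7, with 2040.0 CPM against 11.5 to 33.3 CPM on the other days. In the 295 spots forming the 10% richest in them, none of the 9 genes was 2-fold higher (background 15.3%) or 2-fold lower (6.97%). Lamp2 was highest relative to the other spots, with 277 against 174 CPM (1.59-fold, 1.49 to 1.70), followed by Ctsz (302 against 198 CPM, 1.52-fold) and Ctsa (1.38-fold). Ctsd was lower (792 against 909 CPM, 0.870, 0.840 to 0.902), as was Ctsl (0.922). Ctss did not differ beyond counting error (1.06, 0.960 to 1.16). In these spots the macrophage list was lower (1084 against 1266 CPM), the fibroblast list higher (80892 against 17510.0 CPM) and the osteoclast list higher (394 against 164 CPM). The myofibre list was lower (54746 against 152076 CPM), and the part of these lists in the values was not tested. With a total that leaves out genes of mitochondria, haemoglobin and myofibres, Ctss was at 0.843, Ctsb at 0.870, Lgmn at 0.884 and Lamp1 at 0.907 of the other spots. None of the 8 genes of the osteoclast list was at 0 at day 7, but Calcr, Dcstamp, Ocstamp and Oscar had 30, 10, 25 and 26 UMIs in the section. Calcr was lower than at day 0 (0.717 against 1.16 CPM). Of the list's 186.7 CPM at day 7, Ctsk, a gene of osteoclasts and fibroblasts, had 132.7. Acp5, Mmp9 and Atp6v0d2 had 31.6, 11.9 and 8.41 CPM. Ctsk and Atp6v0d2 are on both the osteoclast and the lysosome lists.

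Spots of 1 section differed widely. Among spots of at least 2000 UMIs at day 3, the tenth percentile, median and ninetieth percentile were 785, 1892 and 7289 CPM for Ctsb, 62.9, 416 and 2285 CPM for Ctss, and 223, 538 and 1026 CPM for Lamp1. Thinned to 2000 UMIs per spot, a Ctss UMI was in 2.04%, 21.6%, 58.05% and 12.8% of spots on days 0, 1, 3 and 7. Before thinning these shares were 15.5%, 45.1%, 91.3% and 45.7%. Lgmn UMIs were in 10.7%, 50.8%, 68.9% and 32.8% of thinned spots, and Ctsb UMIs in 58.4%, 77.0%, 94.1% and 83.5%. RNA that spreads between neighbouring spots would add to such shares, and its part was not tested.

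Across thinned spots of a section the genes were ordered by their relation to the macrophage list. Spots share the library and neighbouring tissue, so Spearman's rho is a description without a test. At day 3 (3020 spots) it was 0.697 for Ctsb, 0.611 for Ctss, 0.560 for Lgmn, 0.534 for Ctsd, 0.457 for Ctsl, 0.366 for Ctsz, 0.350 for Ctsa, 0.293 for Lamp1 and 0.214 for Lamp2. Genes with fewer UMIs reach lower values after thinning. With the adult myofibre list the signs were opposite, from -0.730 for Ctsb to -0.230 for Lamp2. Given the myofibre share, the partial rho with macrophage genes was 0.344 for Ctsb, 0.236 for Ctss and 0.068 for Lamp2. At day 0 all 9 values with the macrophage list lay between 0.0283 and 0.104, and at day 7 between 0.110 and 0.336. Spearman's coefficient with the fibroblast list lay between 0.170 (Lamp2) and 0.5 (Ctsb) at day 3, below the macrophage value for each of the 9 genes, and likewise at day 1. It was above the macrophage value for 7 of the 9 genes at day 0 (all but Ctsa and Ctss), and at day 7 for 5, namely Ctsa (0.171 against 0.125), Ctsl (0.163 against 0.152), Ctsz (0.237 against 0.173), Lamp1 (0.206 against 0.173) and Lamp2 (0.184 against 0.110). The share over all genes was not computed for these counts. Some differences were within the range of draws, as for Ctsl at day 7 (0.131 to 0.18 against 0.123 to 0.173). The fibroblast list also had more UMIs than the macrophage list, with 7624 against 342 CPM at day 0 and 23763 against 1248 CPM at day 7. The part of this difference in depth was not tested. Among pairs of the 9 genes the highest values were at day 3, 0.620 for Ctsb with Ctss, 0.555 for Ctsb with Lgmn and 0.549 for Ctsb with Ctsd.

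**Figure D5:**
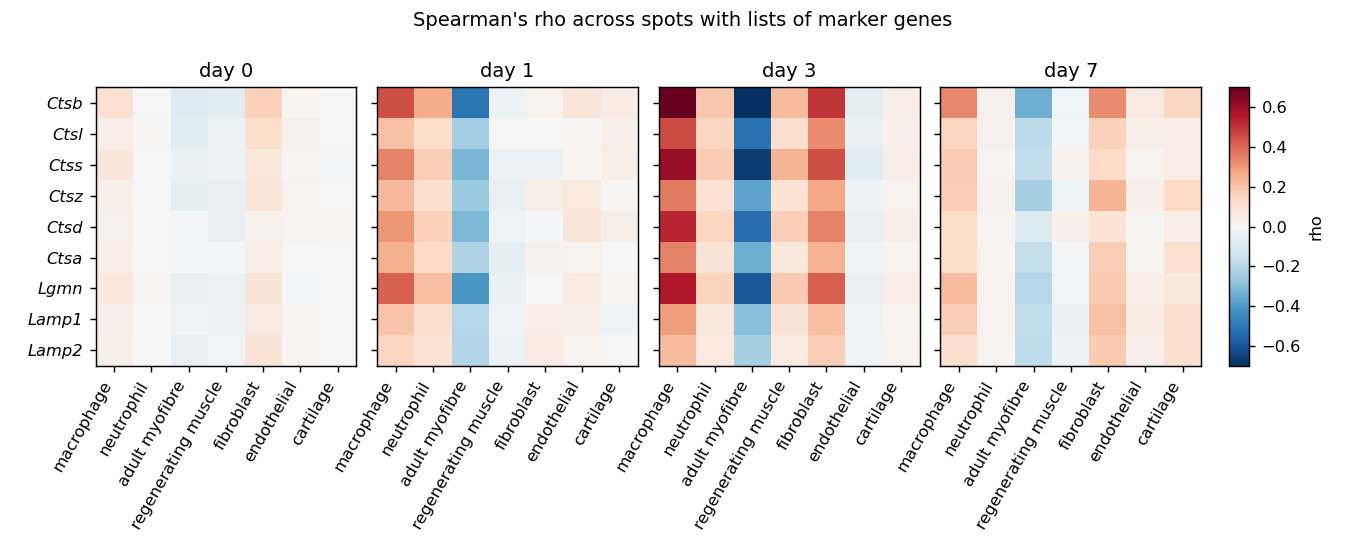
Spearman's rho across spots thinned to 2000 UMIs (mean of 20 draws) between each gene and the summed UMIs of 7 marker lists, in 1 panel per section, with colour from -0.7 (blue) to 0.7 (red) and stronger values at the end colours. The macrophage column is darkest at day 3 (0.697 for Ctsb) and the myofibre column is its opposite (-0.730).

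Genes whose pattern over spots was most like that of each of the 9 were found by Pearson's r of log UMIs per 10000, among genes of at least 50 CPM. Spots were not thinned for this r, and the part of a gene's abundance in the ranks was not tested. At day 3 Psap, the precursor of the saposins that help degrade sphingolipids, ranked first for Ctsb (0.863), Ctsd (0.808), Ctsz (0.693), Ctsa (0.680) and Lamp1 (0.595). Lyz2, the lysozyme of myeloid cells, ranked first for Ctss (0.842), Spp1 (osteopontin) for Ctsl (0.740) and Tmsb4x (thymosin β4) for Lgmn (0.780) and Lamp2 (0.533). Ftl1 (ferritin light chain) ranked second for Ctsb (0.861), Ctsd (0.771), Lgmn (0.771), Ctsz (0.683), Ctsa (0.670), Lamp1 (0.584) and Lamp2 (0.507). At day 1 Actb (β-actin) ranked first for Ctsb (0.699), Lgmn (0.649), Ctsd (0.527), Ctsz (0.423) and Lamp2 (0.282). For the others it was Tmsb4x for Ctss (0.556), Psap for Ctsa (0.429) and Lamp1 (0.319), and Ccl7 for Ctsl (0.347). At day 0 the values were lower, and Ctss was most like Lyz2 (0.309), C1qa (0.304) and C1qb (0.302), while Ctsl, Ctsz, Lamp1 and Lamp2 were all most like Sparc (0.215 to 0.320), a matrix protein gene. Ctsb was then most like Apoe (0.359), Col1a1 (0.344) and Col1a2 (0.323), and Lgmn most like Apoe (0.28), Lyz2 (0.256) and Col1a2 (0.25). At day 7 Apoe, an apolipoprotein gene, ranked first for Ctsb (0.595), Ctsz (0.467), Lgmn (0.404), Ctsd (0.394), Ctsl (0.376) and Lamp1 (0.365), Lyz2 for Ctss (0.491), Col3a1 for Lamp2 (0.394) and Tmsb10 for Ctsa (0.392). Behind Apoe, the collagen gene Col3a1 was among the 3 most alike for Ctsb (0.533), Lgmn (0.392), Ctsl (0.342) and Lamp1 (0.342). Lyz2 was so for Ctsb (0.543) and Lgmn (0.4), and Postn for Ctsz (0.458).

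Other lysosomal genes were taken from 11 lists with 103 genes, of which 79 passed the filter of a mean of 10 CPM. Of these, 24, 51 and 44 were at least 2-fold above day 0 on days 1, 3 and 7, against the backgrounds of 15.3%, 28.4% and 21.3% given above, with 4, 1 and 0 lower. Their median log2 ratios were 0.67, 1.42 and 1.15. On the TMM scale 19, 32 and 18 were at least 2-fold higher, against 11.4%, 14.5% and 8.09% of all genes.

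Among the other cathepsins, Ctsc (which activates serine proteases of granules) had 37.5, 115, 285 and 100.1 CPM and Ctsh 42.3, 63.1, 276 and 76.0 CPM, both highest at day 3. Ctsk, the collagen-degrading cathepsin of osteoclasts and fibroblasts, took another course, with 25.03, 11.3, 30.3 and 132.7 CPM, which is 0.453 of day 0 at day 1 and 5.30-fold at day 7. Of the 8 cathepsins known from the placenta, none had a UMI in any section. The inhibitor Cstb (cystatin B) was 9.93-fold, 11.7-fold and 3.84-fold higher than day 0, whereas the secreted Cst3 had folds of 1.33, 1.70 and 1.52.

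The glycosidases (10 of 11 genes at least 2-fold higher at day 3, 10 at day 7) and the genes of lipid handling (10 of 11 on both days) were among the lists with most genes above day 0. Over all 8097 genes the share was 28.4% at day 3 and 21.3% at day 7. Gusb (β-glucuronidase) had 14.5, 42.4, 114 and 48.6 CPM, while Gaa, the acid α-glucosidase that degrades glycogen, was at 0.863, 1.06 and 1.56 of day 0. Psap had 604, 1034, 2754 and 1228 CPM, and Npc2, a cholesterol carrier, 56.03, 188, 423 and 165 CPM. All 7 genes of the sulfatase list, which includes Sumf1, the activator of sulfatases, were at least 2-fold higher at day 7, against 4 at day 3. Subunits of the proton pump that acidifies the lysosome were 2-fold higher in 10 of 15 cases at day 3 and in 4 at day 7. The count at day 7 was thus near the share over all genes (21.3%). Atp6v0c had 177, 285, 502 and 258 CPM and Atp6v1g1 244, 312, 299 and 307 CPM.

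Other membrane proteins were split. Cd68, a LAMP family member of macrophages, had 7.18, 123, 247 and 56.6 CPM and was 34.4-fold above day 0 at day 3, and Laptm5, of leukocytes, was 15.1-fold above it. Laptm4a was at 0.341 and Laptm4b at 0.491 of day 0 at day 1, and Scarb2, a receptor that carries β-glucocerebrosidase, was at 0.643, 1.00 and 1.27 of day 0. Lamp1 and Lamp2 therefore lay between these members, and the 2 other genes of the family, Lamp3 and Lamp5, had at most 3 and 10 UMIs in a section. Of the regulators, Tfeb had 36.0, 45.6, 29.0 and 45.4 CPM and was 0.807 of day 0 at day 3, while its relative Tfe3 had 8.75, 19.7, 28.0 and 24.1 CPM and was 3.20-fold higher.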

How the data were processed

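Each deposited matrix held UMI counts, not normalised, that the authors obtained with 10x Genomics software. Space Ranger 1.2.0 stands in the matrix headers, while other versions are named elsewhere in the sources, and per the labels reads were downsampled where needed. The submitters' processing notes give mm10. Images and spot positions were not used here. The 9 genes, the gene lists and the comparisons were chosen with earlier results of these data known.

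UMIs were summed per section or class of spots and scaled to CPM. Levels had exact Poisson and ratios exact conditional binomial (Clopper-Pearson) intervals at 95%, which cover counting error only. No test between days was possible with 1 section each. The background was the 8097 genes with a mean of at least 10 CPM, and sums under 3 UMIs were set to 3. Spot classes used spots of at least 2000 UMIs (2090, 2154, 3020 and 2948 by day), ranked by marker lists without the 9 genes. This limit left out 513 of the 2667 spots at day 1, its shallowest, against 17, 9 and 84 at days 0, 3 and 7. Thinning used 20 draws with seed 1. Doublets have no meaning for spots and were not called. Genes named beside the 9 were those of lysosome lists at least 4-fold from day 0, the 2 most abundant of a list, and the 3 most alike per gene. Laptm4b, Scarb2, Sumf1, Tfe3, Lamp3 and Lamp5 were named after their values were seen. On simulated data of 6797 genes, 99.5% of 200 changed genes were recovered for day 1 and 100% for days 3 and 7. The simulated counts had counting error only, at a known scale and without spread between animals. They check the calculation and say nothing of the choice of scale or of replication.

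Alternatives were the factors of edgeR (TMM) or DESeq2, a reduced total (leaving out genes of mitochondria, haemoglobin and myofibres), other minimum depths of spots, a lower gene filter, other class sizes and other thinning depths. The software was R 4.3.3 with DESeq2 1.42.0 and edgeR 4.0.16, and Python 3.11.15 with pandas 2.3.3, SciPy 1.17.1, NumPy 2.4.6 and matplotlib 3.10.9.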

Additional observations from a re-analysis of the deposited data

How the results depend on the processing

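With 1 section per day, no value has a replicate check, and day 1 was the shallowest section, so its intervals are the widest. No paired analysis was possible because each group had 1 section. Of the counts over genes and the median correlations, 61 alternatives stayed within 1.5 times the main count or within the range of draws, and 22 did not. Most of the other values, such as single-gene ratios, medians and shares over all genes, moved. Among their alternatives 335 moved, 134 stayed and 11 reversed direction. For single-gene ratios between sections the limit was the interval of counting error. The cause was not tested.

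With TMM factors the genes at least 2-fold above day 0 at day 7 went from 6 to 3 (3 with DESeq2 size factors), and those above day 1 at day 3 from 7 to 2 (2 with DESeq2, 3 with the reduced total, which leaves out genes of mitochondria, haemoglobin and myofibres). Other lysosomal genes went from 51 to 32 at day 3 with either factor, and from 44 to 18 (TMM) or 17 (DESeq2) at day 7. The lower gene filter (at least 10 UMIs over the 4 sections) kept 90 of them. Of these, 33, 59 and 53 were at least 2-fold above day 0 on days 1, 3 and 7. The shares over all genes were then 23.7%, 31.9% and 32%. In macrophage-rich against macrophage-poor spots, the count at day 0 was 4 with 10% in place of 25% of spots, and at day 1 it was 5 with spots of at least 4000 UMIs and 5 with the reduced total. In neutrophil-rich spots it was 3 with 25% of spots.

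Median rho of the 9 genes with the macrophage list moved with thinning depth. Thinned to 1000 UMIs it was 0.0254, 0.208, 0.339 and 0.106 at days 0, 1, 3 and 7, and thinned to 4000 UMIs 0.569 at day 3 and 0.256 at day 7. Given the myofibre share it was 0.188, 0.153 and 0.103 at days 1, 3 and 7.

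Directions reversed in 11 single-gene values. The log2 ratio of Lamp2 at day 1 was -0.16 with TMM, -0.16 with DESeq2 and -0.12 with the reduced total, and from day 3 to day 7 it was 0.12 with the reduced total. Lamp1 in myofibre-rich spots at day 1 was 0.998 with the reduced total. In cartilage-rich spots Ctss was 0.928 with 25% of spots, 0.954 with spots of at least 4000 UMIs and 0.843 with the reduced total, where Ctsb was 0.870, Lgmn 0.884 and Lamp1 0.907.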
